A study of Arabidopsis thaliana with 42 samples.

Results

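The NLP (NIN-like protein) family of Arabidopsis thaliana has 9 genes, NLP1 to NLP9, which were picked out by their locus identifiers among the 37336 loci of the count files. Their transcripts were followed in 42 RNA sequencing libraries. In 18 of these, whole 7-day-old seedlings were measured in 6 groups of 3: the septuple mutant nlp2,4,5,6,7,8,9, chl1-5, and wild type, each after 20 min in medium with 10 mM KNO3 (marked N in the labels) or 10 mM KCl (marked K). The other 24 came from mesophyll protoplasts (leaf cells stripped of their wall) of soil-grown wild type Col-0, with 2 libraries for each transiently expressed NLP and 2 for each of 3 controls. The labels tie 1 control to NLP4 and 6, another to NLP7, and another to NLP1, 2, 3, 5, 8 and 9.

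All seedlings had ammonium succinate at 2.5 mM as nitrogen source before the treatment. The septuple mutant and wild type are labelled Col-0, and the labels give the mutated genes but not the alleles, and no ecotype for chl1-5, whose mutated gene encodes NRT1.1, a transporter and sensor of nitrate. The growth of chl1-5 is described apart from that of the other seedlings, so a difference of chl1-5 from wild type and a difference between growth runs cannot be told apart. For the transient expression, the sources used here name neither plasmid, promoter and tag nor what the control protoplasts received. Nothing in the labels says that libraries of a group came from separate cultures or plants, so p-values measure the spread between these libraries, which may be technical.

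NLPs are transcription factors that bind DNA through an RWP-RK domain and carry a PB1 domain for protein contacts near their C-terminus. In Arabidopsis, nitrate leads to phosphorylation of NLP7 by calcium-dependent kinases and to its retention in the nucleus, where it activates genes of nitrate uptake and assimilation, and NLP7 itself binds nitrate. NLP6 is its closest relative and shares much of that role, NLP2 acts beside it, and NLP8 is known for nitrate-promoted seed germination.

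The 9 genes are spread over 4 chromosomes (coordinates and sequences from the RefSeq annotation of TAIR10.1). NLP4 (AT1G20640), NLP5 (AT1G76350) and NLP6 (AT1G64530) lie on chromosome 1, NLP1 (AT2G17150) and NLP8 (AT2G43500) on chromosome 2, NLP9 (AT3G59580) on chromosome 3, and NLP2 (AT4G35270), NLP3 (AT4G38340) and NLP7 (AT4G24020) on chromosome 4. The encoded proteins have 767 residues in NLP3, the shortest, and 963 in NLP2, the longest. Each protein holds the motif that names the domain once, and in all 9 it reads RWPSRK, at residue 537 in NLP3 and 630 in NLP7. The 42 coding bases around it are shown because they let the members be told apart by their letters even where the protein is the same; capitals mark the 6 codons of the motif, 5′ to 3′ on the coding strand.
NLP1: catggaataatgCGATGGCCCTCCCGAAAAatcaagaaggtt
NLP2: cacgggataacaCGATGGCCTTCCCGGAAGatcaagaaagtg
NLP3: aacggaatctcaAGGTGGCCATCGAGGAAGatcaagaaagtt
NLP4: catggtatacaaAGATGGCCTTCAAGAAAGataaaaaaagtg
NLP5: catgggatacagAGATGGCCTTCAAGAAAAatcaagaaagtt
NLP6: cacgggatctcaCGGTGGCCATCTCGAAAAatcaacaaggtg
NLP7: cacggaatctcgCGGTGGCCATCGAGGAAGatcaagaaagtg
NLP8: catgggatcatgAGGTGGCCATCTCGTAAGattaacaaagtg
NLP9: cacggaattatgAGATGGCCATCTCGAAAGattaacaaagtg

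These stretches lie in exons, that of NLP3 at chr4:17957121-17957162 on the plus strand and that of NLP7 at chr4:12482818-12482859 on the plus strand. Over the whole protein the closest pairs were NLP4 and NLP5 with 79.1% identical residues, NLP1 and NLP2 with 75.1%, NLP8 and NLP9 with 74.3%, and NLP6 and NLP7 with 64.8%. The longest run of coding bases that any of the 36 pairs share is 44 bases, between NLP1 and NLP2, and no pair shares a run of 50. That run and the 38 bases shared by NLP4 and NLP5, the next longest, are printed as the stretches where a short read could fall on both members.
NLP1 and NLP2: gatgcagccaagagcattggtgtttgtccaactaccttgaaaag
NLP4 and NLP5: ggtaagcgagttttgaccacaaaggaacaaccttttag

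Before the NLP transcripts were compared, 2 features of the protoplast libraries were measured, since the results below depend on them. First, the NLP with the highest count was the labelled one in 14 of the 18 libraries labelled with an NLP. In the library labelled NLP4 replicate 1, NLP1 was highest at 13200 CPM (the count scaled by the library total to the usual CPM unit), against 29.5 CPM for NLP4. In the library labelled NLP6 replicate 1, NLP4 was highest at 43100 CPM, against 14.9 CPM for NLP6. The library labelled NLP5 replicate 2 was led by NLP8 at 41900 CPM with NLP5 at 434 CPM, and that labelled NLP8 replicate 2 by NLP5 at 58400 CPM with NLP8 at 328 CPM. These 4 libraries thus stand against their labels, and the values below say whether they include them.

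The authors' deposited tables gave values for these groups that differ from a fit by the labels. In the authors' deposited table for NLP4, NLP4 had a log2 fold change of 10.1 ± 0.13 (SE) and NLP1 one of 0.13, whereas the fit here, by the labels, gave NLP1 a log2 fold change of 9.32. The authors' deposited table for NLP6 gave NLP1 9.33 ± 2.27 (SE) and NLP4 −0.47, against 0.06 for NLP1 and 9.17 for NLP4 in the fit by the labels. For NLP8 in protoplasts labelled NLP5, the authors' deposited table gave 2.34 ± 0.64 (SE), and the fit by the labels gave 8.96. The authors' values for NLP4, NLP5, NLP6 and NLP8, here and below, may thus come from other sets of libraries than the labels give. Where they stand beside values of the fits made here, the libraries behind them may differ.

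Second, in the control for NLP1, 2, 3, 5, 8 and 9 the libraries differed by no more than sampling noise outside the family, with a chi-square statistic of 1.01 per gene without the 9 NLP genes (p = 0.12), whereas the other 29 replicate pairs gave 3.73 or more. They were therefore summed and counted as 1 sample. Of 15881 genes compared between these libraries, 6 differed after adjustment over all of them, and these 6 were NLP1, NLP2, NLP3, NLP5, NLP8 and NLP9, exactly the members named in that control's label. NLP3 had 294 counts in library 1 and 2 counts in library 2, NLP1 had 174 and 100, and NLP2 had 148 and 43. NLP5 had 132 counts in library 1 and 570 in library 2, NLP8 had 257 and 482, and NLP9 had 48 and 377. The remaining members lay close together, with 162 and 164 counts for NLP4, 97 and 133 for NLP6, and 768 and 890 for NLP7. The cause was not tested. Cross effects on NLP1, NLP2, NLP3, NLP5, NLP8 and NLP9 in protoplasts set against that control depend on which of its libraries is taken, whereas NLP4, NLP6 and NLP7 did not differ past the test between them.

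**Figure D1:**
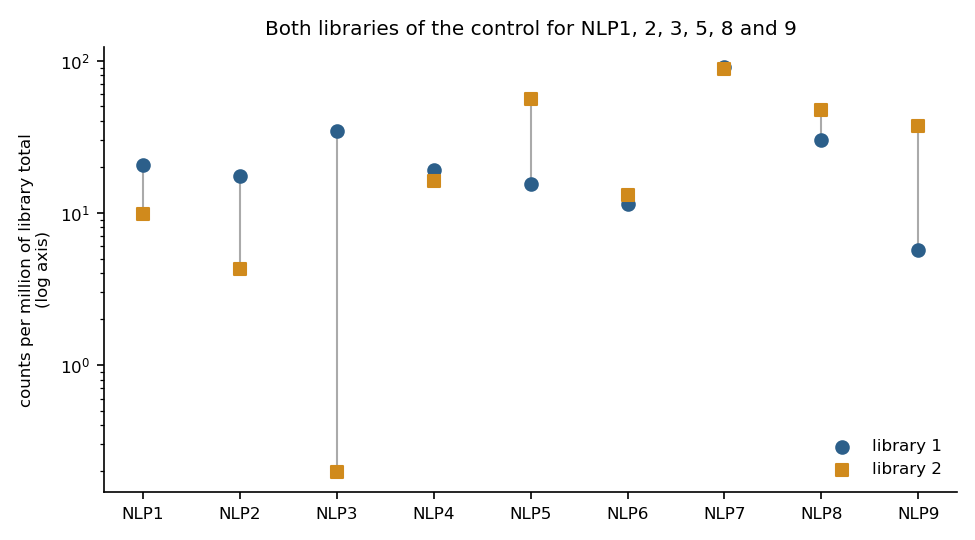
CPM of the library total (log axis) of the 9 NLP transcripts in both libraries of the control for NLP1, 2, 3, 5, 8 and 9. NLP1, NLP2 and NLP3 are higher in library 1, NLP5, NLP8 and NLP9 in library 2, and NLP4, NLP6 and NLP7 lie close together.

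Library totals lay between 18316847 and 59711053 counts in seedlings and between 5637777 and 27731436 counts in protoplasts. For a member with 0 counts in a library, the floor of 3 counts corresponds to 0.0502 to 0.164 CPM in seedlings and 0.108 to 0.532 CPM in protoplasts, covering counting error only. All 9 members passed the filter on low counts in both fits. Of the mesophyll markers RBCS1A, CA1, LHCB1.1, LHCB2.1 and GAPA, all 5 had counts in every protoplast library, summing to 465 to 1500 CPM, while in whole seedlings they summed to 18100 to 42400 CPM. In protoplasts, epidermis markers summed to at most 1.08 CPM, guard cell markers to at most 4.18 CPM and vasculature markers to at most 6.03 CPM. Root markers summed to 6.83 to 65.1 CPM in protoplasts, and all these sums are shares of library totals.

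NLP7 was the most abundant member in wild type seedlings. To compare genes, levels were divided by the length of the exons, since longer transcripts give more reads. On this scale NLP7 stood at 19.1 CPM per kb in nitrate and 22.1 CPM per kb in KCl, and NLP6 came next at 9.41 CPM per kb in nitrate and 9.89 CPM per kb in KCl. NLP3 followed at 7.5 CPM per kb in nitrate, but in KCl, at 1.27 CPM per kb, only NLP9 was below it. NLP4 had 6.95 CPM per kb in nitrate and 7.06 CPM per kb in KCl. NLP1, NLP5 and NLP2 lay between 2.33 and 3.12 CPM per kb in both treatments and overlapped as neighbours. NLP8 had 1.2 CPM per kb in nitrate and 1.39 CPM per kb in KCl, and NLP9 was lowest, at 0.206 CPM per kb in nitrate and 0.446 CPM per kb in KCl. In KCl, the ranges of NLP7, NLP6 and NLP4 over the 3 libraries did not overlap, while from NLP5 down to NLP9 each member overlapped the next.

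NLP7 also led in all 6 control protoplast libraries, with a mean of 36.8 CPM per kb in the control for NLP4 and 6, 49.9 CPM per kb in that for NLP7 and 24.1 CPM per kb in the one shared by the remaining 6 members. The order below it differed from that of seedlings. NLP8, above NLP9 alone in wild type seedlings in nitrate, came behind NLP7 and 1 other member in each of the 3 protoplast controls, at 10.0, 9.0 and 8.85 CPM per kb, although in 2 of them its range overlapped that of a neighbour. NLP3 was at the bottom of 2 controls, with 0.0296 CPM per kb in that for NLP4 and 6 and 0.0306 CPM per kb in that for NLP7. Protoplasts came from soil-grown plants and seedlings from liquid medium, so no test was made between them.

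**Figure D2:**
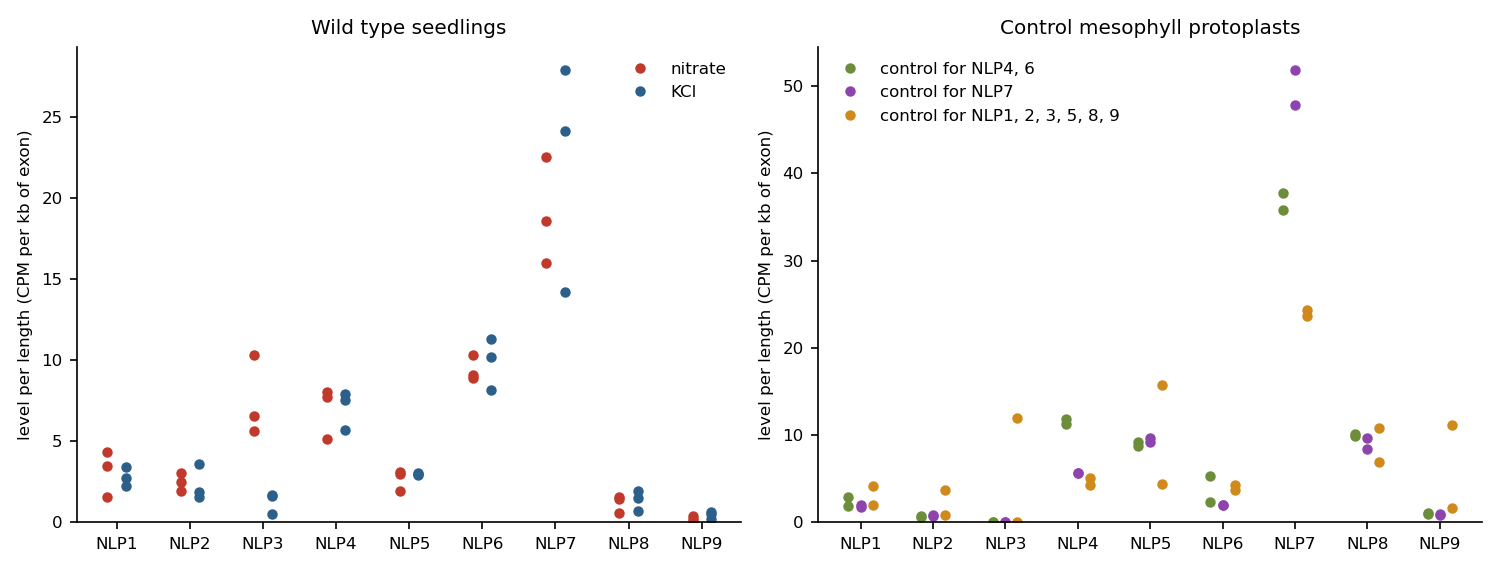
Levels of the 9 NLP transcripts per length (TMM-scaled CPM per kb of exon, 1 point per library) in wild type seedlings in nitrate and KCl and in the 3 control groups of protoplasts. NLP7 is highest in every group, NLP3 is spread apart by nitrate in seedlings, and the control for NLP1, 2, 3, 5, 8 and 9 is spread in NLP3, NLP5 and NLP9.

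NLP3 was higher in nitrate than in KCl in wild type seedlings. It had 15.2, 17.7 and 28.0 CPM in nitrate, against 4.43, 4.52 and 1.33 CPM in KCl. The groups did not overlap, and all nitrate libraries lay above all KCl libraries. The mean was 20.3 ± 6.79 CPM in nitrate and 3.43 ± 1.82 CPM in KCl (SD, n = 3 each), a log2 fold change of 2.57 ± 0.42 (SE; adjusted p = 0.000963 in the edgeR quasi-likelihood test, with Benjamini-Hochberg adjustment over 21229 genes). It was the only one of the 9 members called at an adjusted p under 0.05, against 0.725% of all genes tested. The median log2 fold change of the 9 members was −0.07 and that of all genes −0.07. In the authors' deposited table NLP3 had a log2 fold change of 2.61 ± 0.42 (SE) for the same comparison. Mesophyll markers moved with it: 2 of 5 were called higher in nitrate, and their summed level was 30600 to 47000 CPM in nitrate and 20900 to 28500 CPM in KCl (TMM-scaled), without overlap. None of the 4 guard cell, 3 epidermis, 3 vasculature or 5 root markers was called. The part of the mesophyll markers in the NLP3 value was not tested, and in whole seedlings fewer cells of a type and less RNA per cell cannot be told apart.

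The other 8 members had log2 fold changes for nitrate in wild type between −1.12 ± 1.38 (SE) in NLP9 and 0.16 ± 0.32 (SE) in NLP1. NLP7, the member whose protein is held in the nucleus by nitrate, averaged 66.4 ± 11.3 CPM in nitrate and 76.9 ± 24.6 CPM in KCl (SD, n = 3 each), with a log2 fold change of −0.21 ± 0.26 (SE; adjusted p = 0.853 by edgeR). NLP6 averaged 27.4 ± 2.17 CPM in nitrate and 28.7 ± 4.57 CPM in KCl (SD, n = 3 each; log2 fold change −0.07 ± 0.20, SE). NLP4 differed by −0.02 ± 0.22 on the log2 scale, NLP2 by 0.09 ± 0.55, NLP5 by −0.18 ± 0.42 and NLP8 by −0.21 ± 0.58 (SE each). None of these passed the test, and the wide error of NLP9 goes with its 52 counts over the 3 nitrate libraries and 235 over the 3 KCl libraries.

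**Figure D3:**
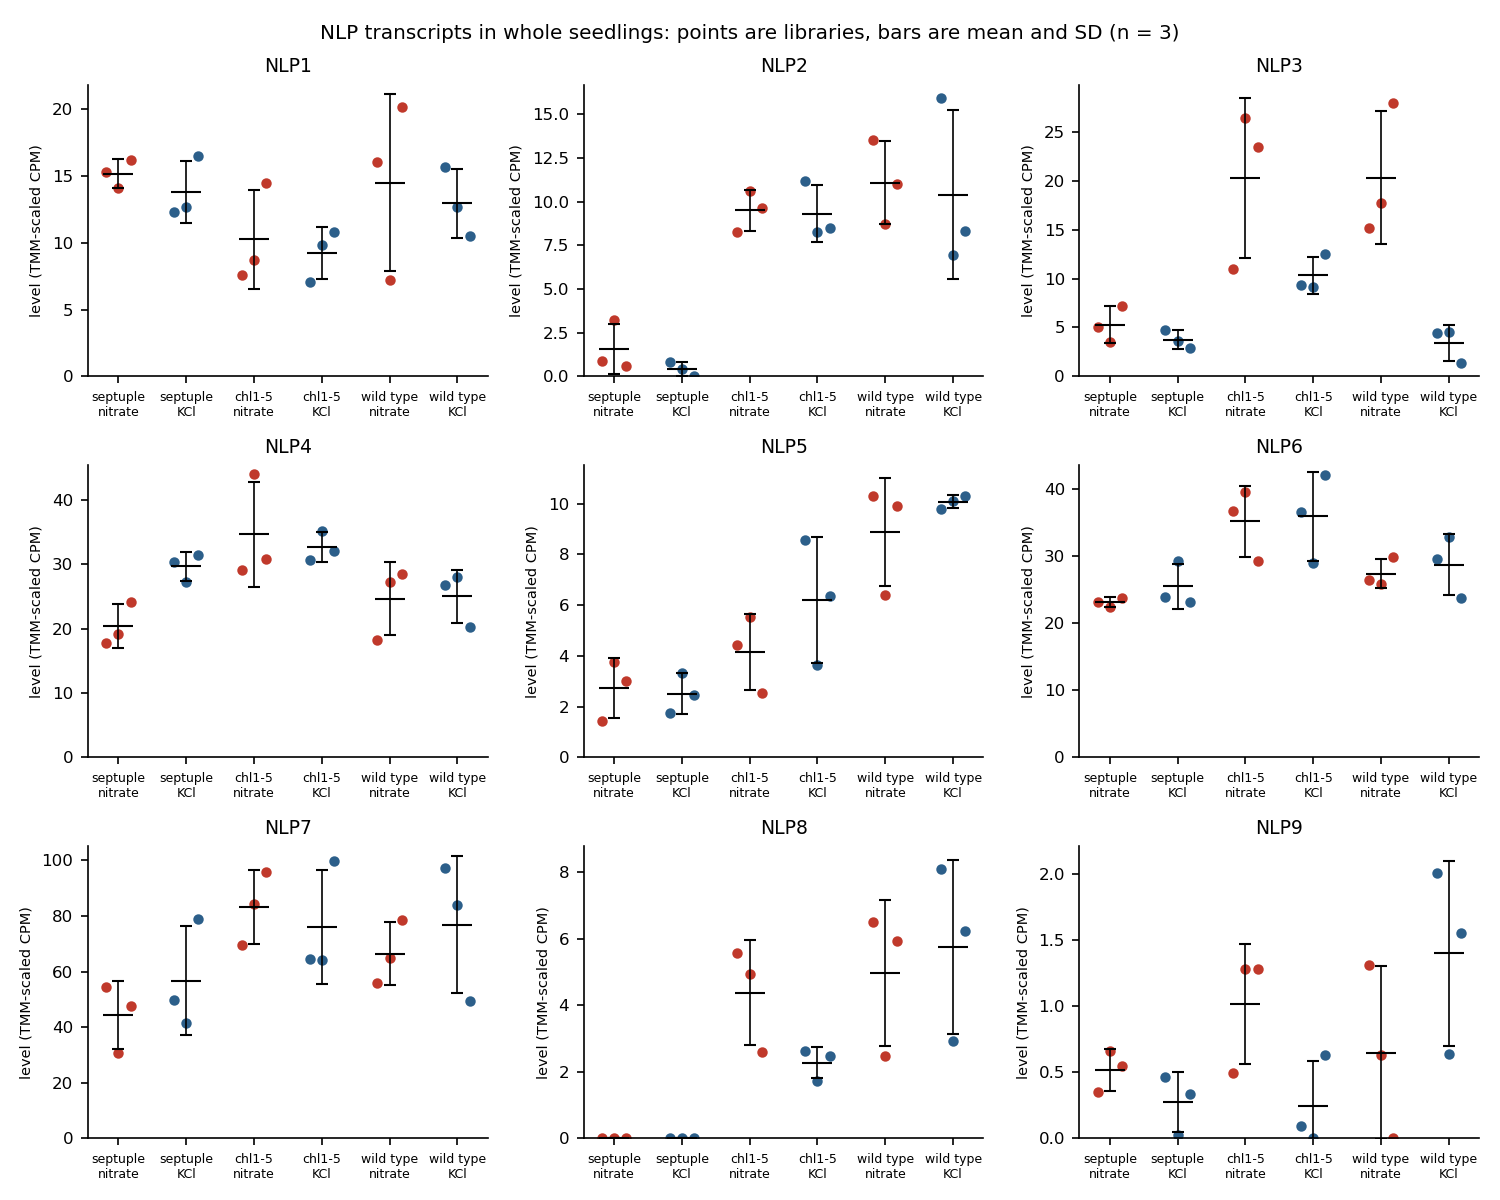
Levels (TMM-scaled CPM) of the 9 NLP transcripts in whole seedlings; points are libraries and bars give mean and SD (n = 3), with nitrate in red and KCl in blue. NLP3 is at 15.2 to 28.0 CPM in wild type in nitrate and at 1.33 to 4.52 CPM in KCl, and NLP2, NLP5 and NLP8 are low or at 0 in the septuple mutant.

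In the septuple mutant, in which NLP3 and NLP1 are the members not named as mutated, NLP3 had 5.07, 3.53 and 7.24 CPM in nitrate and 4.75, 3.6 and 2.88 CPM in KCl. These ranges overlapped. The log2 fold change was 0.49 ± 0.40 (SE; adjusted p = 1.0 by edgeR), and no member was called, as was no gene (0% of 21229). At an unadjusted p under 0.05, 438 genes passed, 2 of them members, NLP2 and NLP4; DESeq2 called 0 of the 9 members as well. The difference between the responses of NLP3 in septuple mutant and wild type was −2.07 ± 0.57 on the log2 scale (SE; unadjusted p = 0.00123, adjusted p = 0.133 by edgeR), which did not pass, and 0.278% of genes passed for that difference. Without the filter on low counts, NLP3 was called for this difference. Between the genotypes in nitrate, where the libraries did not overlap, NLP3 was lower in the septuple mutant, by a log2 fold change of −1.94 ± 0.41 (SE; adjusted p = 0.00221 by edgeR), while in KCl the log2 fold change was 0.14 ± 0.40 (SE; adjusted p = 0.95).

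In chl1-5, NLP3 had 11, 26.4 and 23.5 CPM in nitrate, against 9.33, 9.18 and 12.5 CPM in KCl. The nitrate range overlapped that of wild type, while all KCl libraries lay above those of wild type. Within chl1-5 the log2 fold change for nitrate was 0.97 ± 0.40 (SE; adjusted p = 0.688 by edgeR), no member was called by edgeR or by DESeq2, 1 member (NLP3) was under an unadjusted p of 0.05, and 0.122% of all genes were called. Against wild type in KCl, NLP3 was higher in chl1-5 by a log2 fold change of 1.59 ± 0.41 (SE; adjusted p = 0.0277 by edgeR), with means of 10.3 ± 1.87 CPM in chl1-5 and 3.43 ± 1.82 CPM in wild type (SD, n = 3 each). It was the only member of 9 called there, against 5.48% of genes. The call was lost in a fit of only these groups (adjusted p = 0.108) and without wild type replicate 1 or 3 or chl1-5 replicate 1 or 3, with adjusted p up to 0.126.

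In nitrate the NLP3 level of chl1-5 differed from wild type by −0.00 ± 0.39 on the log2 scale (SE), and no member was called by edgeR or DESeq2, against 0.0612% of genes; NLP4 and NLP5 were under an unadjusted p of 0.05. The difference between the nitrate responses of chl1-5 and wild type was −1.59 ± 0.57 for NLP3 (log2, SE; unadjusted p = 0.0092, adjusted p = 0.524 by edgeR), for which 0.00942% of genes were called and no member, also by DESeq2. Mesophyll markers moved with NLP3 in KCl: 3 of 5 were called higher in chl1-5 than in wild type, and their summed level was 39700 to 50800 CPM in chl1-5 and 20900 to 28500 CPM in wild type (TMM-scaled). Epidermis markers summed to 748 to 820 CPM in chl1-5 and 403 to 575 CPM in wild type, with 2 of 3 called higher. Root markers summed to 139 to 165 CPM in chl1-5 and 84.1 to 122 CPM in wild type, with 1 of 5 called higher, and no guard cell or vasculature marker was called. The part of these markers in the NLP3 value was not tested.

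The upstream sequence of NLP3 is given because it is the member called for nitrate in wild type. The nitrate-responsive element (NRE) bound by NLPs was searched on both strands in the 250 bases before each gene's start, as GACNCTT followed by 10 bases of any kind and AAG. It was in none of the 9 windows, and in 0.146% of 27443 such windows of the genome. The short form, CTT, 10 bases and AAG, which the full motif contains, was in 8.017% of windows and in 1 of the 9 members, NLP9. That these letters are absent from a window of this length says nothing on sites elsewhere. The window of NLP3 is chr4:17954460-17954709 of TAIR10.1, plus strand.
NLP3 upstream: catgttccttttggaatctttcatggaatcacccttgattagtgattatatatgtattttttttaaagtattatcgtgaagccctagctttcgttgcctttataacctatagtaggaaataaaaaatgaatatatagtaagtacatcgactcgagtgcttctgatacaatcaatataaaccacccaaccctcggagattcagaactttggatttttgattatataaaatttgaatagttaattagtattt

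The transcripts of the 7 genes named in the septuple mutant fell into groups with very different levels. NLP8 had 0 counts in all 6 septuple libraries. In wild type it had 6.5, 2.46 and 5.93 CPM in nitrate and 8.08, 2.93 and 6.22 CPM in KCl. Against a floor of 3 counts over the group, on the same TMM scale, it was at least 223-fold lower in the septuple mutant in nitrate and at least 236-fold lower in KCl (adjusted p = 8.92e-07 and 5.33e-06 by edgeR).

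NLP2 had 0.888, 3.22 and 0.564 CPM in the septuple mutant in nitrate, against 13.5, 8.74 and 11 CPM in wild type. In KCl it had 0.798, 0.39 and 0 CPM in the septuple mutant, against 15.9, 6.94 and 8.33 CPM in wild type. The groups did not overlap in either treatment, with log2 fold changes of −2.87 ± 0.60 in nitrate (SE; adjusted p = 0.00205) and −4.56 ± 0.66 in KCl (SE; adjusted p = 0.000128, both by edgeR). Single septuple libraries moved these values: without replicate 2 the log2 fold change in nitrate was −3.93, and without replicate 1 that in KCl was −5.45, both still called. Some NLP2 reads were left, 168 over the 3 nitrate libraries and 63 over the 3 KCl libraries.

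NLP5 had 1.45, 3.77 and 3.0 CPM in the septuple mutant in nitrate, against 10.3, 6.41 and 9.92 CPM in wild type. In KCl it had 1.74, 3.34 and 2.45 CPM in the septuple mutant, against 9.8, 10.1 and 10.3 CPM in wild type. It too was lower without overlap, with log2 fold changes of −1.70 ± 0.44 in nitrate (SE; adjusted p = 0.0109) and −2.0 ± 0.44 in KCl (SE; adjusted p = 0.0102, both by edgeR). The calls were lost without septuple replicate 1, with adjusted p of 0.0786 in nitrate and 0.0803 in KCl.

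NLP7, NLP6 and NLP4 are named as mutated too, but their transcripts were counted in all septuple libraries and no difference from wild type passed the test. NLP7 had 54.4, 30.7 and 47.7 CPM in the septuple mutant in nitrate, against 55.9, 64.9 and 78.4 CPM in wild type, a log2 fold change of −0.58 ± 0.27 (SE; unadjusted p = 0.0375, adjusted p = 0.178 by edgeR). In KCl it had 49.8, 41.6 and 78.8 CPM in the septuple mutant and 97.2, 83.9 and 49.5 CPM in wild type (log2 fold change −0.44 ± 0.27, SE). NLP7 remained the member with the highest level per length in the mutant, at 12.7 CPM per kb in nitrate and 16.3 CPM per kb in KCl. A count per gene does not show whether a transcript is whole or encodes a protein.

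NLP6 averaged 23.2 ± 0.699 CPM in the septuple mutant in nitrate and 27.4 ± 2.17 CPM in wild type (SD, n = 3 each), a log2 fold change of −0.24 ± 0.20 (SE), and −0.17 ± 0.20 in KCl. NLP4 averaged 20.4 ± 3.36 CPM in the septuple mutant and 24.7 ± 5.66 CPM in wild type in nitrate, and 29.7 ± 2.23 CPM in the septuple mutant and 25.0 ± 4.15 CPM in wild type in KCl (SD, n = 3 each), with log2 fold changes of −0.27 ± 0.22 in nitrate and 0.25 ± 0.22 in KCl (SE). NLP9 was near the limit of detection, at 0.347 to 0.658 CPM in the septuple mutant and 0 to 1.31 CPM in wild type in nitrate, and at 0.0217 to 0.461 CPM in the septuple mutant and 0.636 to 2.01 CPM in wild type in KCl, with a log2 fold change in KCl of −2.35 ± 1.44 (SE; adjusted p = 0.568 by edgeR). NLP1, not named as mutated, differed by 0.07 ± 0.32 in nitrate and 0.09 ± 0.32 in KCl on the log2 scale (SE).

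In sum over the family, 4 of 9 members were called in nitrate, all lower in the septuple mutant (NLP2, NLP3, NLP5 and NLP8), against 10.8% of genes called, and 3 of 9 in KCl (NLP2, NLP5 and NLP8), against 2.25%. The median log2 fold change of the members was −0.58 in nitrate and −0.44 in KCl, beside 0.04 and −0.04 over all genes. Mesophyll markers were lower in the septuple mutant in nitrate as well, 4 of 5 called, with sums of 15200 to 18200 CPM in the septuple mutant and 30600 to 47000 CPM in wild type. In nitrate 1 of 3 vasculature markers was called lower, and of 5 root markers 1 was called higher and 1 lower. In KCl 1 of 3 vasculature markers was called higher in the septuple mutant and no other marker was called, while epidermis markers summed to 631 to 716 CPM in the septuple mutant and 403 to 575 CPM in wild type. The part of these markers in the values was not tested.

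Over the 18 seedling libraries, the genes outside the family with a pattern nearest to NLP3 were AT5G20885 (Pearson r = 0.92 of log2 CPM), GA3OX1, a gibberellin 3-oxidase gene (r = 0.90), and AT1G80440 (r = 0.90), among genes with a mean of at least 5 CPM. These likenesses describe 18 libraries in 6 groups of genotype and treatment. Differences between those groups enter the correlations, and no test belongs to them. For NLP7 the nearest were GBF1, a G-box binding factor gene (r = 0.87), AT4G26650 (r = 0.86) and AT5G01720 (r = 0.86). For NLP8 they were AT3G11210 (r = 0.96), AT5G35935 (r = 0.96) and AT4G32950 (r = 0.95), with Spearman rho of 0.63, 0.88 and 0.61; the 18 libraries include the 6 at 0 counts. Within the family, NLP2 and NLP8 (r = 0.87) and NLP5 and NLP8 (r = 0.79) were most alike, which follows the genotype, and NLP3 had r between −0.14 and 0.51 with the other members.

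Of the genes upstream or beside the NLPs, a list of 9 kinases and partners (CPK10, CPK30, CPK32, KIN10, CIPK8, CIPK23, TCP20, NRG2 and NRT1.1), none was called for nitrate in wild type, the septuple mutant or chl1-5. CPK32, one of the calcium-dependent kinases that phosphorylate NLP7, averaged 43.2 ± 12.0 CPM in nitrate and 65.4 ± 27.5 CPM in KCl in wild type (SD, n = 3 each). NRT1.1, the gene mutated in chl1-5, was lower there in nitrate by a log2 fold change of −3.35 ± 0.25 and in KCl by −2.82 ± 0.24 (SE; adjusted p = 7.52e-09 and 1.07e-07 by edgeR), and was lower in the septuple mutant in nitrate by −1.27 ± 0.23 (SE; adjusted p = 0.000503). Of the 5 RKD genes, which share the RWP-RK domain without the rest of an NLP, 1, RKD5, passed the filter, and it was not called in any seedling comparison.

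The list of genes known as NLP targets was set beside the family. Of 17 listed, 16 were tested, and 13 were called higher in nitrate in wild type, where 0.725% of all genes were called. The list median was 2.03 on the log2 scale beside −0.07 over all genes. NIR1, the nitrite reductase gene, rose by a log2 fold change of 2.75 ± 0.23 (SE; adjusted p = 3.76e-08 by edgeR). In the septuple mutant 0 of 16 were called for nitrate, with a median of 0.13, but no gene at all was called there (0% of 21229). NIR1 had a log2 fold change of 0.83 ± 0.22 (SE) for nitrate in that mutant. For the difference between the responses of septuple mutant and wild type, 10 of 16 were called lower, where 0.278% of all genes were called. In chl1-5 8 of 16 were called higher in nitrate, with a median of 1.27, where 0.122% of all genes were called. This list was drawn up with earlier results of these libraries known.

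In the 18 protoplast libraries labelled with an NLP, the NLP that led a library had 7930 CPM (an NLP1 library) to 127000 CPM (an NLP3 library) on the TMM scale, which the following values use. Endogenous and plasmid transcripts of a member cannot be told apart by counts per gene. Each member is therefore described in the libraries that are neither labelled with it nor led by it. Any reads of plasmid origin left in those libraries cannot be told apart either. NLP5 had 390 CPM in the library labelled NLP5 replicate 2, led by NLP8. NLP8 had 332 CPM in that labelled NLP8 replicate 2, led by NLP5. The origin of such reads was not tested. In the fit of all libraries by their labels, counts from plasmids enter the spread of a member, and few members were called. None was called with NLP1 (1.58% of all genes called), NLP6 (4.05%) or NLP7 (9.63%). By unadjusted p, 0, 2 and 0 of 8 members were under 0.05, and DESeq2 called 0, 2 and 0. With NLP6 the 2 were NLP3 and NLP4 in both fits, and NLP4 led the library labelled NLP6 replicate 1. NLP9 was called lower with NLP2 (14.3%) and with NLP3 (2.79%). NLP2 was called lower with NLP5 (10.6%), NLP8 (10.9%) and NLP9 (19.3%), and NLP1 was called higher with NLP4 (3.46%), where it rests on the library labelled NLP4 replicate 1 alone.

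Without the 4 libraries that stand against their labels, the share of genes called rose along with the number of members called, so the counts of members are read against it. The members called were 3 of 8 with NLP1 (15.1% of genes), 4 with NLP2 (31.0%), 2 with NLP3 (16.2%), 2 with NLP4 (24.2%), 4 with NLP5 (18.2%), 2 with NLP6 (8.29%), 3 with NLP7 (23.6%), 5 with NLP8 (24.8%) and 5 with NLP9 (33.1%). In this fit NLP4, NLP5, NLP6 and NLP8 are each left with 1 library, which is assumed to vary like the other groups. The control for NLP5 and NLP8 is the summed one, so their contrasts set 1 sample against 1, and the spread behind their p-values comes from the other groups alone. The log2 fold changes and adjusted p-values that follow are edgeR values from this fit unless another is named. Contrasts that share a control share its libraries.

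NLP3, the nitrate-responsive member of seedlings, was all but absent from the controls for NLP4 and 6, with 0 and 1 counts, and for NLP7, with 3 counts over 2 libraries. In the library labelled NLP4 replicate 2 it had 293 counts, 19.4 CPM, a ratio to its control of 258 with an exact 95% interval of 46.0 to 10200. This interval and those below treat reads as independent and cover counting error only, not the spread between libraries. In the library labelled NLP6 replicate 1, in which NLP4 was the highest NLP, it had 97 counts, 18.8 CPM. Both libraries led by NLP4 thus had NLP3 near 19 CPM. The library labelled NLP4 replicate 1, led by NLP1, had 1.82 CPM, a ratio of 24.2 (exact 95% interval 3.68 to 1020). That labelled NLP6 replicate 2, led by NLP6, had 0.255 CPM, a ratio of 3.39 (0.176 to 200). In the control for NLP1, 2, 3, 5, 8 and 9, NLP3 had 32.6 CPM in library 1 and 0.186 CPM in library 2. A level above 19 CPM thus occurred in a control library too, and its bearing on the values with NLP4 and NLP7 was not tested.

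The log2 fold change of NLP3 with NLP4 was 7.84 ± 0.40 (SE; adjusted p = 1.47e-13), against 7.05 ± 2.05 (SE; adjusted p = 0.0671) with all libraries by their labels, and 7.99 ± 1.5 (SE) in the authors' deposited table. With 1 count in the control group, the fitted value depends on the prior count. In the fit by the labels it was 6.04 or 10.31 without a control library, 7.85 without NLP4 replicate 1 and 4.44 without NLP4 replicate 2, and of these only 7.85 was called (adjusted p = 0.00934). In the same libraries, labelled NLP4 replicate 2 and NLP6 replicate 1, NLP2 had 3.19 and 2.52 CPM, against 3.4 and 2.89 CPM in the control, and NLP9 had 3.05 and 2.52 CPM, against 3.4 and 3.21 CPM in the control.

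With NLP7, NLP3 had 1.25 and 0.875 CPM, against 0.0853 and 0.0805 CPM in its control. The groups did not overlap, at 16 and 11 counts with NLP7 and 3 counts over the control, and the ratios were 15.2 (exact 95% interval 4.35 to 81.4) and 10.7 (2.82 to 59.5). The log2 fold change was 3.61 ± 0.48 (SE; adjusted p = 3.69e-06), against 3.59 ± 2.15 (SE; adjusted p = 0.334) with all libraries by their labels, and 3.74 ± 1.27 (SE) in the authors' deposited table. In the block of NLP1, 2, 5, 8 and 9, NLP3 ranged over 3.44 to 35.7 CPM and its control libraries had 32.6 and 0.186 CPM, so no direction is given there.

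NLP6 was higher in all libraries labelled NLP5 or NLP8. It had 34.4 and 31.3 CPM in those labelled NLP5 and 43.0 and 28.8 CPM in those labelled NLP8, against 10.7 and 12.4 CPM in the control. These 4 libraries were led by NLP5 or NLP8 whatever their label. All lay above both control libraries, which count as 1 sample. The log2 fold change was 1.54 ± 0.35 with NLP5 (SE; adjusted p = 0.00231) and 1.87 ± 0.34 with NLP8 (SE; adjusted p = 0.000204). With all libraries by their labels it was 1.48 ± 1.75 and 1.61 ± 1.75 (SE; adjusted p = 0.635 and 0.603), and the authors' deposited tables gave 1.45 ± 0.39 and 1.68 ± 0.39 (SE). With NLP9 the level was 11.5 and 16.4 CPM and with NLP1 26.4 and 14.4 CPM, neither called.

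NLP4 was lower with NLP5, NLP8 and NLP9. It had 10.1 and 8.79 CPM in libraries labelled NLP5, 9.74 and 10.2 CPM in those labelled NLP8 and 8.92 and 9.05 CPM in those labelled NLP9, against 17.9 and 15.2 CPM in the control. All 6 lay below both control libraries, which count as 1 sample. The log2 fold changes were −0.73 ± 0.15, −0.77 ± 0.14 and −0.90 ± 0.12 (SE; adjusted p = 0.000752, 0.00025 and 2.16e-06). With all libraries by their labels they were −0.81, −0.74 and −0.88 and not called (adjusted p = 0.858, 0.871 and 0.826).

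NLP4 was lower with NLP7 too, at 14.6 and 15.7 CPM, against 20.2 and 20.2 CPM in its control (log2 fold change −0.36 ± 0.10, SE; adjusted p = 0.0101). In the library labelled NLP6 replicate 2 it had 27.4 CPM, against 41.8 and 39.9 CPM in the control (−0.57 ± 0.12, SE; adjusted p = 0.00333). A gene on the opposite strand, AT1G20650, overlaps NLP4 by 462 bases and had 1.11 to 14.3 CPM of the library total over all 42 libraries. The sources used here do not say whether counting used strand, so reads of this stretch cannot be told apart. The same limit holds for NLP5 and NLP1, in seedlings as well. Opposite to NLP5 lie AT1G76360, with 49 bases of overlap and 12.9 to 57.5 CPM, and AT1G09617, with 700 bases and 0 CPM. Opposite to NLP1 lies AT2G17140, with 212 bases and 0 to 11.6 CPM.

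NLP7, the most abundant member in the controls, was lower with NLP9. With NLP9 it had 64.9 and 65.1 CPM, against 85.1 and 82.7 CPM in the control, a log2 fold change of −0.39 ± 0.13 (SE; adjusted p = 0.0222), against −0.38 ± 0.18 (SE; adjusted p = 0.172) with all libraries by their labels. In the libraries labelled NLP8 it had 63.9 and 65.7 CPM and in those labelled NLP5 73.8 and 66.4 CPM, all below both control libraries. With NLP8 it was called in a fit made for NLP7 alone, without the libraries labelled NLP7 (−0.40 ± 0.12, SE; adjusted p = 0.0208). The authors' deposited tables gave NLP7 −0.36, −0.37 and −0.27 for NLP9, NLP8 and NLP5.

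NLP8 was lower in the libraries set against the controls for NLP7 and for NLP4 and 6. With NLP7 it had 25.2 and 23.6 CPM, against 39.8 and 34.7 CPM in the control (log2 fold change −0.55 ± 0.09, SE; adjusted p = 7.5e-05). The libraries labelled NLP4 replicate 2 and NLP6 replicate 2 had 28.6 and 29.8 CPM, against 41.0 and 42.0 CPM in the control (−0.55 ± 0.12 and −0.47 ± 0.12, SE; adjusted p = 0.000818 and 0.0128). With all libraries by their labels these were −0.58, −0.44 and −0.50 and not called (adjusted p = 0.879, 0.911 and 0.908). The library labelled NLP4 replicate 1, led by NLP1, had NLP8 at 32.6 CPM. That labelled NLP6 replicate 1, led by NLP4, had it at 28.9 CPM. Both lay below the control libraries as well, so in this block NLP8 was lower whether NLP1, NLP4 or NLP6 led.

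NLP1 was not called with NLP7, NLP4 or NLP6 in this fit; with NLP7 it had 9.58 and 7.79 CPM, against 8.1 and 9.54 CPM in the control. NLP5 had 21.0 and 26.2 CPM with NLP7, against 31.0 and 32.6 CPM in the control, which was called in the fit made for NLP5 alone (−0.43 ± 0.15, SE; adjusted p = 0.0396) but not in the fit without the 4 libraries. NLP2 and NLP9 lay between 2.04 and 5.25 CPM in the libraries labelled NLP4, NLP6 and NLP7, against 2.7 to 3.86 CPM in their controls, and neither was called.

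**Figure D4:**
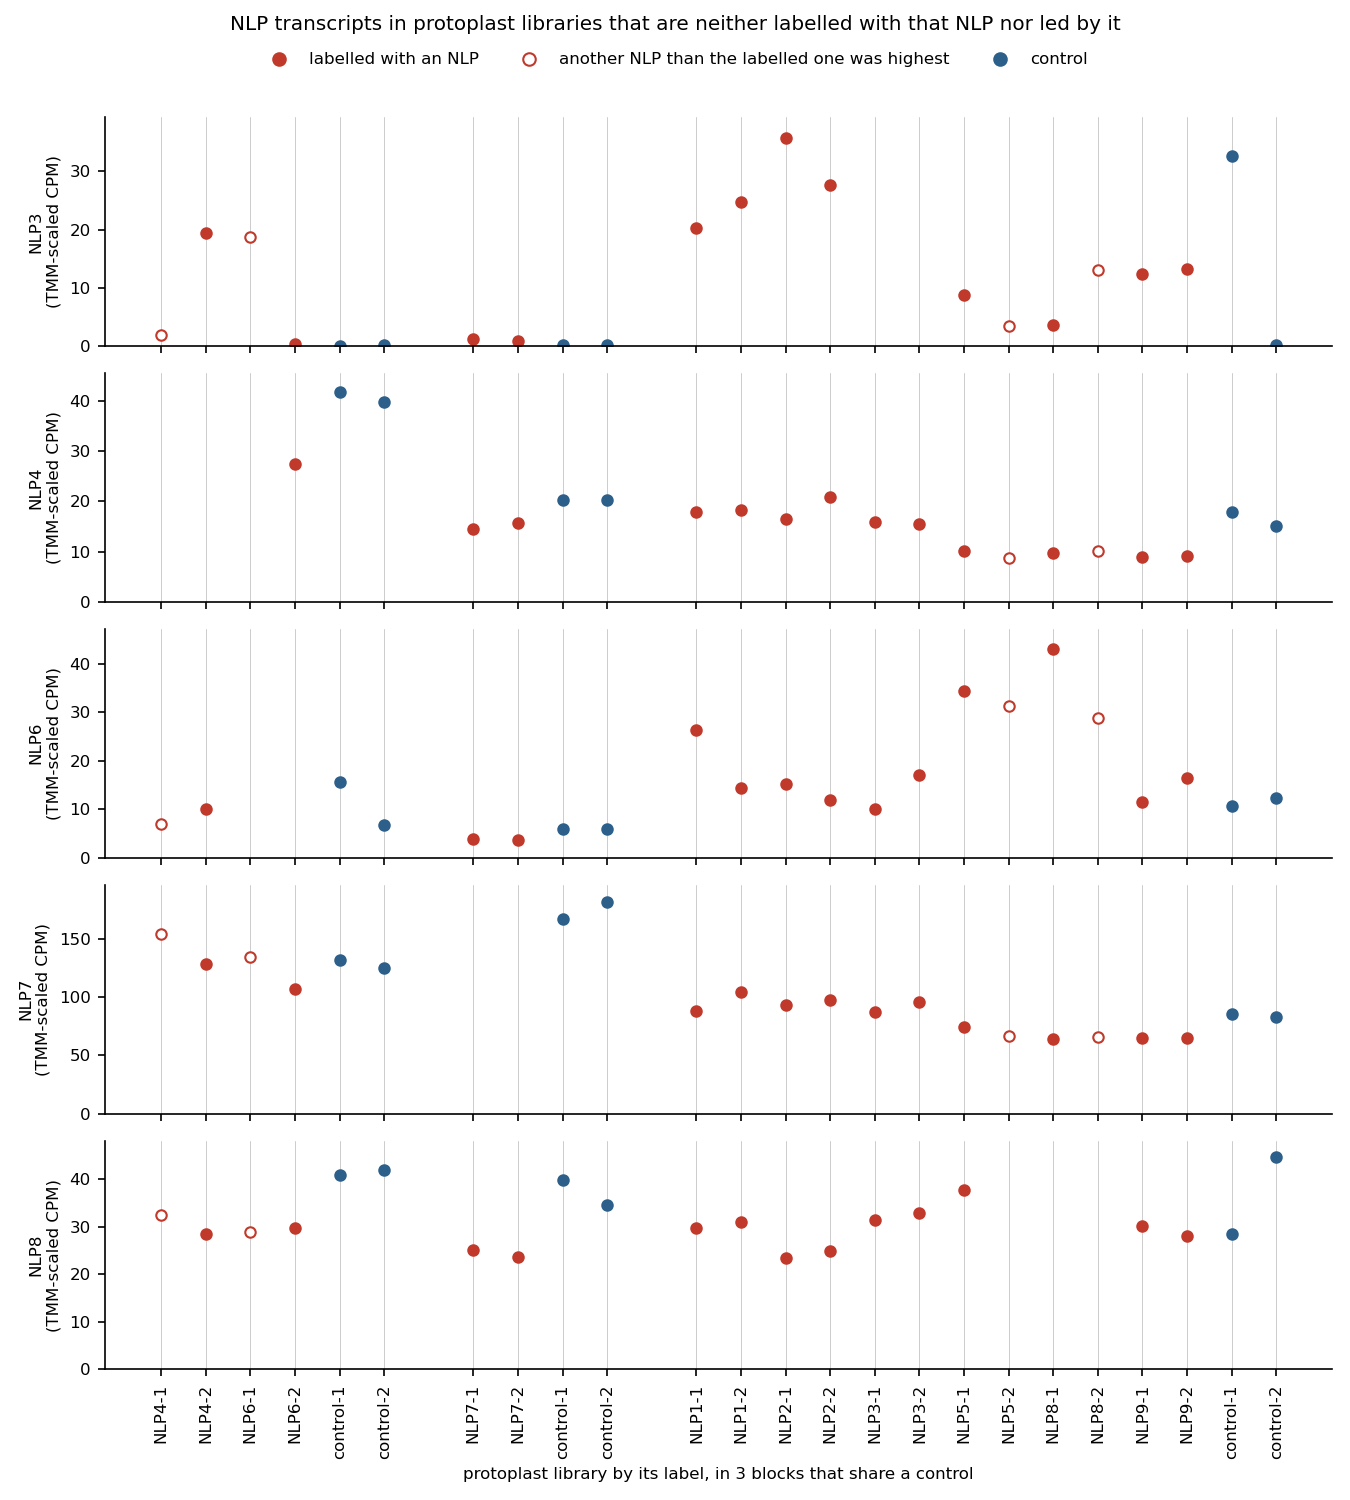
Levels (TMM-scaled CPM) of NLP3, NLP4, NLP6, NLP7 and NLP8 in protoplast libraries that are neither labelled with that NLP nor led by it, in 3 blocks that share a control; libraries labelled with an NLP are red (open where another NLP was highest) and controls blue. NLP3 is near 19 CPM in both libraries led by NLP4, and at 32.6 CPM in 1 control library of another block. NLP6 is at 28.8 to 43.0 CPM in libraries labelled NLP5 or NLP8, and NLP4 is below its control with NLP5, NLP8 and NLP9.

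The calls made for NLP2 and NLP9 with all libraries by their labels depend on the control libraries that differ. NLP9 had 8.16 and 4.0 CPM with NLP2 and 3.59 and 3.48 CPM with NLP3, against 5.32 and 35.0 CPM in the libraries of their control. The log2 fold changes were −1.82 (adjusted p = 0.0263) and −2.61 (adjusted p = 0.0132 by edgeR) against the summed control, and −1.85 and −2.61 without the 4 libraries. Without NLP2 replicate 1 the value with NLP2 was −2.43. With control library 1 alone they were 0.19 (adjusted p = 0.866) and −0.59 (adjusted p = 0.667).

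NLP2 had 5.6 and 3.59 CPM in libraries labelled NLP5, 5.07 and 5.01 CPM in those labelled NLP8 and 4.18 and 3.02 CPM in those labelled NLP9, against 16.4 and 4.0 CPM in the control libraries. Its log2 fold changes were −1.09, −0.95 and −1.43 (adjusted p = 0.0171, 0.0295 and 0.00183 by edgeR) against the summed control. Without the 4 libraries they were −0.81, −0.94 and −1.44 (adjusted p = 0.00909, 0.00182 and 8.22e-07). With control library 2 alone they were 0.19, 0.33 and −0.15, with adjusted p of 0.747, 0.544 and 0.78. No direction of NLP2 or NLP9 in these protoplasts is therefore given.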

How the data were processed

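Each library's file, as deposited, holds whole-number read counts per locus. The build TAIR10 and the tools TopHat2 2.1.1, HTSeq 0.6.1, featureCounts and FastQC 0.11.5 are named, without their roles, per the submitters' processing notes. Rows of reads with no gene stayed out of library sizes; they came to 0.82 to 16.7% of gene counts in seedlings and 0.84 to 20.99% in protoplasts. The authors also deposited tables of log2 fold changes and adjusted p-values per comparison, for which the sources used here name no tool.

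Counts were tested with edgeR 4.0.16 in R 4.3.3 (quasi-likelihood F test, TMM, filterByExpr, Benjamini-Hochberg over all genes, called at 0.05). Seedlings were fitted as 18 libraries (21229 genes, 12 residual degrees of freedom) and protoplasts as 23 samples (19311 genes, 11 residual degrees of freedom), with 1 control summed. The SE is the size of the log2 fold change over the root of F. CPM are TMM-scaled, in protoplasts over all 24 libraries, except in the checks of labels and control libraries, the protoplast markers and the floors per library, which use library totals. Nearest patterns used log2 CPM with a prior count of 2. The alternatives were DESeq2 1.42.0, other scaling, no filter, libraries left out, a replicate block and other sample sets. The script was tested on simulated data. Named genes are all 9 members, the 3 nearest patterns of each and the listed genes; members, lists and tests were chosen with earlier results of these data known.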

Additional observations from a re-analysis of the deposited data

How the results depend on the processing

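The nitrate call of NLP3 in wild type held under every alternative run, with log2 fold changes of 2.18 to 2.82 when 1 library was left out. For chl1-5 against wild type in KCl, the number of members called was 0 with only the groups compared and 0 to 1 when 1 library was left out. For the nitrate response of the septuple mutant minus wild type, it was 1 without the filter. Over the libraries labelled NLP1, NLP2, NLP3, NLP7 and NLP9, the sum of members called was 3, and 13 without the filter, 15 with only the groups compared, 17 without the 4 libraries that stand against their labels, 16 in a fit per member, and 1 to 5 when 1 library was left out. The share of all genes called in these 5 comparisons was 1.58 to 19.3%, and 3.9 to 13.8% without the filter, 22.2 to 50.0% with only the groups compared, 15.1 to 33.1% without the 4 libraries, 14.2 to 33.6% in a fit per member and 0.316 to 17.4% when 1 library was left out. Over those labelled NLP4, NLP5, NLP6 and NLP8 it was 3, and 8 with DESeq2, 18 without the filter, 5 with only the groups compared, 13 without the 4 libraries, 13 in a fit per member, and 1 to 5 when 1 library was left out. The share of all genes called in these 4 comparisons was 3.46 to 10.9%, and 8.19 to 13.9% with DESeq2, 7.41 to 10.2% without the filter, 0.0383 to 21.3% with only the groups compared, 8.29 to 24.8% without the 4 libraries, 8.06 to 25.6% in a fit per member and 0.291 to 13.7% when 1 library was left out. Where the 4 libraries were kept, the sums over NLP4, NLP5, NLP6 and NLP8 can count members that led a library against its label. NLP1 with NLP4 is among the 3, and with DESeq2 NLP1 with NLP4, NLP8 with NLP5 and NLP4 with NLP6 are among the 8. Signs turned on leaving out a library of the control for NLP1, 2, 3, 5, 8 and 9, the library labelled NLP4 replicate 1 or that labelled NLP6 replicate 1. Leaving out 1 library at a time gave, with NLP1, −0.23 to 1.81 for NLP2, −0.53 to 6.86 for NLP3 and −1.83 to 0.02 for NLP5. With NLP2 it gave −0.04 to 7.35 for NLP3 and −2.52 to 0.19 for NLP9. With NLP5 it gave −1.84 to 0.19 for NLP2 and −2.42 to 4.96 for NLP3, and with NLP8 −1.7 to 0.33 for NLP2 and −2.01 to 5.44 for NLP3. With NLP9 it gave −1.05 to 0.81 for NLP5 and −0.62 to 0.03 for NLP8. NLP1 with NLP4 ranged over −0.17 to 10.32 and NLP4 with NLP6 over −0.58 to 10.16. Without the 4 libraries NLP1 with NLP4 was −0.19 and NLP4 with NLP6 −0.57, and in a fit per member −0.19 and −0.58. The values of single members under alternatives were tallied for 40 pairs of member and comparison only. These were the pairs called in the fit of all libraries or in that without the 4 libraries. Of their 527 values, 399 kept direction and side of the threshold, 26 lost the call, 85 gained it and 17 turned their sign. Pairs picked by the fit without the 4 libraries gain the call there by that choice, and the tally does not describe all members.

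Same-numbered seedling libraries did not deviate together, with correlations of −0.26 to 0.16, so no pairing by replicate number was seen there. In protoplasts the correlations were −0.04 to 0.07 but could not decide on pairing. With 2 libraries per group, both replicates give the same value. The comparisons with NLP1, NLP2, NLP3, NLP5, NLP8 and NLP9 use the control whose libraries differ by no more than sampling noise outside the family. With the replicate block, seedling counts of members called were 1 for nitrate in wild type, 0 in the septuple mutant and 0 in chl1-5, 3 and 4 for the septuple mutant in KCl and nitrate, 1 and 0 for chl1-5 in KCl and nitrate, and 0 for both differences between responses; in protoplasts the sums were 2 and 3. Depth limits NLP9 in seedlings and NLP3 in control protoplasts, which rest on few counts.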

Other observations

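Some kinases that act on NLPs or in the nitrate response were called in protoplasts with all libraries by their labels (edgeR); values are given for NLP1, NLP2, NLP3, NLP7 and NLP9, whose libraries were all led by the labelled member. CPK32, a calcium-dependent kinase that phosphorylates NLP7, was lower with NLP9, by a log2 fold change of −0.71 ± 0.14 (SE; adjusted p = 0.00288). CPK10, another of these kinases, was lower with NLP7, by −0.45 ± 0.10 (SE; adjusted p = 0.0135). CIPK8, a kinase of the primary nitrate response, was higher with NLP2, by 1.5 ± 0.33, and with NLP7, by 1.16 ± 0.25 (SE; adjusted p = 0.00793 and 0.00884). No other gene of that list of 9 was called with these 5 NLPs, so 1 of 9 was called with NLP9, 1 with NLP2 and 2 with NLP7, against 19.3%, 14.3% and 9.63% of all genes.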
